A study of Drosophila melanogaster with 8 samples.

Results

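The comparison described here is that of RNA bound to ribosomes in Drosophila melanogaster S2 cells with and without knockdown of DENR. S2 cells are a line of embryonic origin with features of blood cells (haemocytes). The labels give all samples as wildtype S2 cells treated with double-stranded RNA, directed either against DENR or, in the controls, against GFP, which is no fly gene. The members are 4 of the 8 arrays in the series, chosen by their titles: 2 of ribosome-bound RNA after DENR knockdown and 2 of ribosome-bound RNA from control cells. The other 4 arrays hold total RNA of both treatments and serve here for comparison. Ribosome-bound RNA is the pool of the 80S (single ribosome) and polysome fractions, so that an mRNA with 1 ribosome and one with several are counted alike. The dose and the duration of the treatment are not given in the sources used here.

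DENR is a small protein that acts as a heterodimer with MCTS1. The pair binds the small ribosomal subunit after termination and is known for its part in translation re-initiation, the resumption of translation downstream of short upstream open reading frames. eIF2D joins regions related to both proteins in a single chain. An mRNA is measured on ribosomes in proportion to its amount in the cell and to the share of it that is engaged, so both can move the signal described below. With RNA from a whole culture, fewer cells of a kind and less RNA per cell cannot be told apart.

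The values were log2 signals per probe set, from 0.83 to 12.88, with array medians from 2.32 to 2.48. One feature was kept per gene symbol, and the brightest 60% of features were tested, 10262 in all, of which 8164 are genes with a single symbol. Tests were made with limma, and a feature was called where its Benjamini-Hochberg adjusted p was under 0.05; "rose" or "fell" is used below only of called features. The spread came from all 4 groups, since 2 arrays a group give too little of their own. On the first principal component (65.8% of the variance) the 4 ribosome-bound arrays lay together at 22.3 to 29.4. Among the total RNA arrays, the first knockdown array stood at -9.0 and its mate at -27.3, next to -29.6 and -35.1 for the controls. Total RNA differences are given below as values, without a test.

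The cells carried the marker transcripts of haemocytes. Of 26 plasmatocyte and haemocyte markers on the array, 17 had a log2 signal of at least 4 in control ribosome-bound RNA and 15 after knockdown. Of 9 neuronal markers, 0 reached that level in either group, and of 7 muscle markers 0 did in controls and 1 after knockdown. Among 11 germline markers, and among 15 for fat body, gut and follicle cells, 3 each did in both groups, as did 3 of 5 crystal cell and 4 of 6 lamellocyte markers.

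DENR itself was examined first. On ribosomes it read 8.41 and 8.26 (log2 signal) in controls, against 5.40 and 4.46 after knockdown. Both knockdown arrays lay far below both controls, and the pair differed from each other by more than the controls did. DENR fell 10.6-fold (log2 change -3.40 ± 0.25, SE, 2 arrays in each group; Benjamini-Hochberg adjusted p = 0.000203, limma). In total RNA the same probe set read 8.28 and 8.18 in controls and 7.38 and 7.60 after knockdown, a difference of -0.74. MCTS1 on ribosomes read 7.45 and 7.53 in controls and 7.06 and 7.33 after knockdown (-0.29 ± 0.16, adjusted p = 0.513). eIF2D read 6.75 and 6.79 in controls and 6.99 and 6.88 after knockdown (0.17 ± 0.14, adjusted p = 0.688). Neither passed the limma test. InR, the insulin receptor (-0.22 ± 0.14, adjusted p = 0.591), and EcR, the ecdysone receptor (0.31 ± 0.27, adjusted p = 0.718), did not pass it either. Their control means on ribosomes were low, at 3.12 for InR and 3.37 for EcR, where array background weighs more than for MCTS1 and eIF2D.

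In ribosome-bound RNA, 138 of 10262 features changed, which is 1.34% of those tested. Of these, 67 rose (0.653%) and 71 fell (0.692%), and 63 and 57 of them were genes with a single symbol. An unadjusted p under 0.05 was found for 1350 features. The median change over all features was -0.003 on the log2 scale. The arrays of both treatments did not overlap for 47.1% of features. The smallest called change was 0.65 in size in either direction, and 26 rises and 37 falls reached a log2 size of 1, a change by a factor of at least 2. The features that fell had a higher control signal (median 6.19) than those that rose (median 4.89), with 5.23 over all features. Of the rises, 20 began from a control signal under 4, where array background weighs most, while 19 of the falls ended below it.

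**Figure D1:**
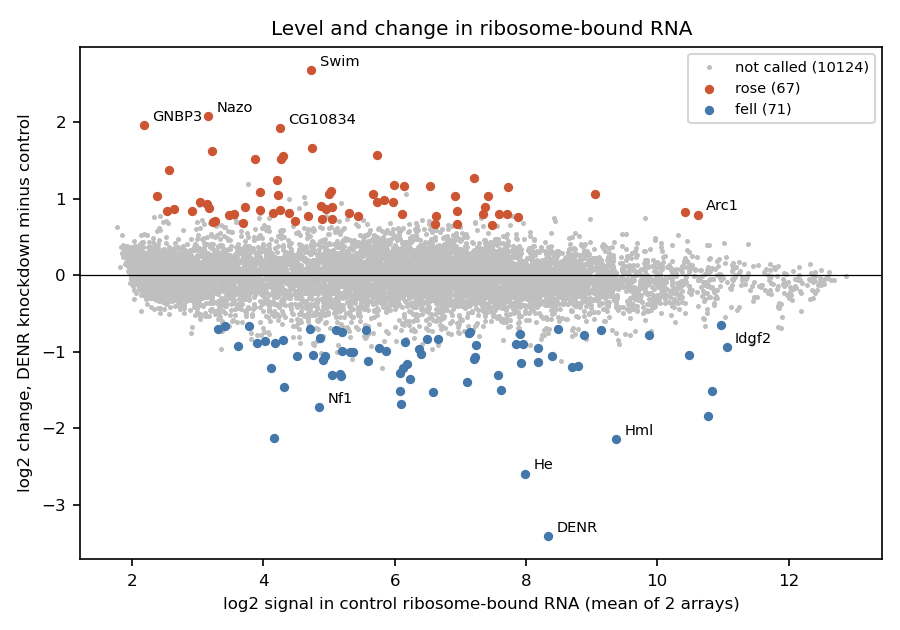
Each point is 1 of 10262 features, with the mean log2 signal of the 2 control ribosome-bound arrays on the x axis and the log2 change on DENR knockdown on the y axis. The 67 features that rose and the 71 that fell are coloured; the falls reach further from 0, to -3.40 for DENR, and many begin at higher signals than the rises.

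The largest falls after DENR were in genes of the haemocyte surface and of clotting. He (Hemese), a transmembrane protein of haemocytes, read 8.02 and 7.96 in controls and 5.27 and 5.53 after knockdown. It fell 6.02-fold (-2.59 ± 0.14, adjusted p = 6.96e-05). Hml (Hemolectin), a large secreted clotting protein, read 9.37 and 9.37 in controls and 7.21 and 7.26 after knockdown, and fell 4.40-fold (-2.14 ± 0.14, adjusted p = 0.000114). These were the steepest falls of named genes apart from DENR, and both ended well above the array medians. Their total RNA differences were of like size, at -2.85 for He and -1.69 for Hml.

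The Nimrod family, EGF-repeat proteins with parts in phagocytosis and haemocyte adhesion, had 8 members tested, of which 5 fell. NimB5 read 6.06 and 6.09 in controls and 4.55 and 4.56 after knockdown (-1.52 ± 0.13, adjusted p = 0.000346). NimB4, a secreted protein needed for the clearance of apoptotic cells, went from 6.04 and 6.20 to 4.95 and 4.85 (-1.22 ± 0.17, adjusted p = 0.0103). NimC1, a phagocytosis receptor of plasmatocytes, went from 4.01 and 4.24 to 2.76 and 3.05 (-1.22 ± 0.16, adjusted p = 0.00530). The 2 knockdown arrays of each of these genes lay close together and about a log2 unit or more below the controls. NimB2 (-1.06 ± 0.18) and NimB3 (-0.82 ± 0.13) also fell. NimB1 (-0.47 ± 0.14, adjusted p = 0.166), NimC4 (-0.06 ± 0.21) and NimA (-0.02 ± 0.15) did not pass the test. NimC4 read 3.29 and 3.19 in controls but 3.54 and 2.81 after knockdown, so that its groups overlapped.

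A run of 6 of these genes lies side by side. In the RefSeq gene table of the Release 6 assembly, NimB2, NimB3, NimB4, NimB5, He and NimC1 follow each other on chromosome arm 2L with no other protein-coding gene between them, and all of them fell. The spans of NimB5 and He overlap in that table. NimA and NimB1 precede the group and Cyp28a5, a cytochrome P450 (-0.40 ± 0.15, adjusted p = 0.285), follows it, all without a call. Farther along, NimC2, rk and NimC3 were on the array but below the signal filter, and bgm, an acyl-CoA synthetase gene, fell by 0.72 ± 0.15 on the log2 scale (adjusted p = 0.0471). Shares by arm were taken over protein-coding genes placed in that table, 8092 of those tested, 60 of the 63 that rose and all 57 that fell. Arm 2L held 26 of the 57 falls (45.6%), against 18.2% of the placed genes tested and 23.3% of the placed rises. Arm 2R held 4 of the falls (7.02%) and 13 of the rises (21.7%), against 20.3% of the placed genes tested, so its share of rises was near that of the tested genes.

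**Figure D2:**
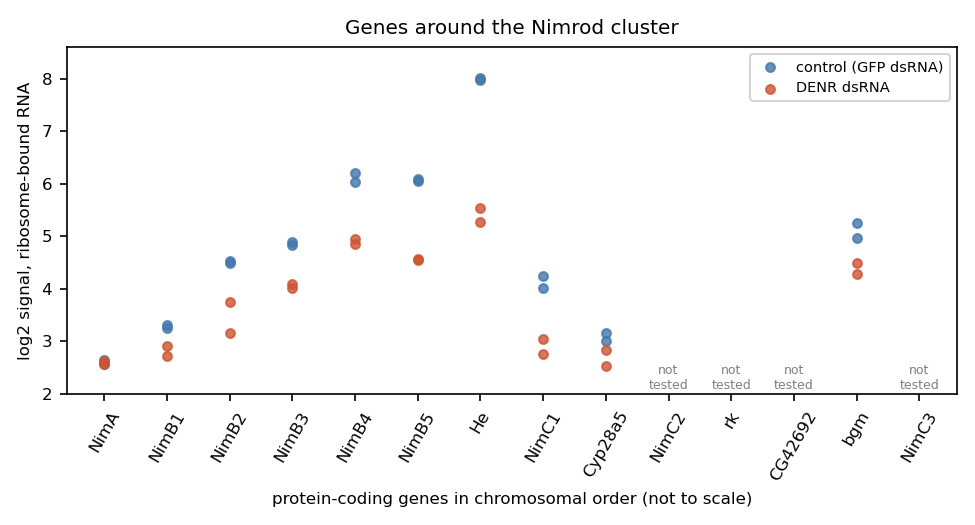
Log2 signal in ribosome-bound RNA of protein-coding genes in their order on chromosome arm 2L from NimA to NimC3, 1 point per array (blue, 2 control arrays; orange, 2 DENR knockdown arrays; spacing not to scale). From NimB2 to NimC1 the knockdown arrays lie below the control arrays at all 6 genes, with differences of -2.59 at He and -0.82 at NimB3, and the points of NimA coincide.

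The whole list of plasmatocyte and haemocyte markers had 26 members, of which 21 were tested and 5 (NimC2, NimC3, Sr-CII, Sr-CIII and gcm2) lay below the filter. Of the 21, 8 fell and none rose, leaving 13 without a call, against 0.692% of all features falling. For 16 of the 21 the knockdown arrays were both lower than either control, which held for 23.8% of all features. The median change was -0.574, beside -0.003 over all features. Besides He, Hml and 5 Nimrod genes, Sr-CI, a scavenger receptor for bacteria, fell from 7.04 and 7.37 to 6.11 and 6.11 (-1.09 ± 0.18, adjusted p = 0.0207). The GATA factor srp, which specifies blood cells, read 8.94 and 8.88 in controls and 8.02 and 8.15 after knockdown without passing the test (-0.83 ± 0.19, adjusted p = 0.0786). The bacterial receptor eater (-0.67 ± 0.18, adjusted p = 0.123) and the engulfment receptor drpr (-0.57 ± 0.23, adjusted p = 0.319) also had non-overlapping arrays but no call. The scavenger receptor crq (0.20 ± 0.23) and the ferritin subunit Fer1HCH (-0.07 ± 0.13) had overlapping groups. The list thus held steep falls beside members whose groups overlapped. The count of 8 became 4 or 3 when the first or second control ribosome array was left out, and 3 or 5 when the first or second knockdown ribosome array was. Averaged over all 26 markers, the log2 signal was 5.61 and 5.64 in controls and 4.97 and 5.04 after knockdown.

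Markers of other blood cell types and tissues had few calls. Of 5 lamellocyte markers tested of 7 listed, cher, the actin cross-linker filamin, fell (7.32 and 7.15 to 6.25 and 6.40, -0.91 ± 0.17, adjusted p = 0.0332), and the list median was -0.116. That is a called share of 20%, against 1.34% of all features. For 4 of the 5 both knockdown arrays lay below both controls (80%, against 23.8% of all features), as they did for most plasmatocyte markers. None of the 3 crystal cell markers tested of 5 was called by limma (0 at an unadjusted p under 0.05); the largest value was that of Mlf (-0.30 ± 0.22, adjusted p = 0.645) and PPO1, a prophenoloxidase, differed by 0.07 ± 0.13. Of 14 tested markers (of 18) for fat body, gut and follicle cells, the lysosomal mannosidase LManI fell (7.14% called), and the median was -0.063. Both knockdown arrays lay below both controls for 2 of the 14 (14.3%) and above them for 2. Neuronal (5 of 11 tested) and germline (6 of 12) markers had 0 calls by limma, and 0 members at an unadjusted p under 0.05. Their largest values were those of para, a sodium channel (0.18 ± 0.14), and bgcn (0.31 ± 0.23). The 1 muscle marker tested of 10, bt, differed by 0.56 ± 0.23 (adjusted p = 0.317).

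Haemocytes make much of the fly's basement membrane. In the list of extracellular matrix and basement membrane genes, most values lay below 0 on ribosomes, with few calls. That list is wider than the basement membrane itself and also holds the secreted Idgf genes, matrix proteases and their inhibitor. Of 25 genes, 21 were tested: 2 fell (9.52%, against 0.692% of all features), none rose and 19 had no call, though 12 had an unadjusted p under 0.05, all lower. Both knockdown arrays lay below both controls for 16 of the 21 (76.2%, against 23.8% of all features), and the median change was -0.417, beside -0.003 over all features. Idgf2, a secreted chitinase-like growth factor, fell from 11.08 and 11.03 to 9.99 and 10.24 (-0.94 ± 0.15, adjusted p = 0.0163). wb, a laminin alpha chain, fell from 6.22 and 6.09 to 5.14 and 5.44 (-0.87 ± 0.16, adjusted p = 0.0344) on the probe set used. The dimmer ones for wb, at mean signals of 1.57 and 1.92, gave -0.01 and 0.03. Idgf2 and the probe set used for wb had their 2 knockdown arrays clear of the controls. The other laminin chains gave LanA -0.90 ± 0.20 (adjusted p = 0.0624), LanB2 -0.80 ± 0.21 (adjusted p = 0.123) and LanB1 -0.75 ± 0.24 (adjusted p = 0.211), none past the test. LanA read 9.39 and 9.45 in controls and 8.41 and 8.63 after knockdown. The collagen IV chains vkg (-0.60 ± 0.16, adjusted p = 0.112) and Col4a1 (-0.43 ± 0.15, adjusted p = 0.253) had no call either. The perlecan gene trol (-0.16 ± 0.22) and the protease inhibitor Timp (-0.04 ± 0.16) had overlapping groups. In total RNA the median of the list was -0.10, and the 3 laminin chains LanA, LanB1 and LanB2 differed there by 0.08, 0.15 and 0.03, although the test between fractions given further on called none of them. The haemocyte markers above were lower on the same arrays, and their part in these values was not tested. Fits lacking 1 of the 4 ribosome-bound arrays each gave a count of 0 in place of 2.

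Signalling genes that changed were few in number in each pathway, but the lists are short. Among the signalling lists with a call, the called share ran from 4.35% (cAMP and G protein signalling) to 11.1% (EGFR, Ras and MAPK). Over all features it was 1.34%, a share that 1 call in so short a list already exceeds. The JAK-STAT (6 tested), Hippo (12), Hedgehog and BMP (15) and JNK (13) lists had 0 calls by limma. Nf1, a GTPase-activating protein for Ras, read 4.76 and 4.95 in controls and 3.21 and 3.04 after knockdown (-1.73 ± 0.14, adjusted p = 0.000328). Its other probe sets, at mean signals of 2.61 and 3.5, differed by -0.47 and -0.26. The second is nearly as bright as the one used (3.63), so that the size of the fall depends on the probe set. In the same list of EGFR, Ras and MAPK genes (18 tested of 34, median -0.174), grk, the TGF-alpha-like ligand Gurken, rose from 5.66 and 5.79 to 7.19 and 7.39 (2.97-fold, 1.57 ± 0.16, adjusted p = 0.00150). The feedback inhibitor sty (-0.73 ± 0.17, adjusted p = 0.0834) was not called. The list thus had 1 rise and 1 fall.

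chico, the insulin receptor substrate, read 4.66 and 5.15 in controls and 3.94 and 3.67 after knockdown (-1.10 ± 0.22, adjusted p = 0.0471). It was the 1 of 18 insulin and TOR signalling genes called (of 29 listed, median -0.093), and its call was lost with a replicate block, with the culture as a random block, with array medians centred, with a minimum fold of 1.5, with the brightest 40% of features and in the 4 fits that each lacked a ribosome-bound array. The next values in the list were Pdk1 (-0.60 ± 0.16) and the GATOR subunit Nprl3 (0.55 ± 0.16), neither past the test. In total RNA chico differed by 0.26, the opposite sign.

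spz, the ligand of Toll, read 7.85 and 8.00 in controls and 6.68 and 6.87 after knockdown (-1.15 ± 0.17, adjusted p = 0.0129), 1 of 19 IMD and Toll genes tested. The NF-kappaB factor Rel differed by 0.29 ± 0.16 (adjusted p = 0.493). Ac78C, an adenylyl cyclase, read 5.94 and 6.24 in controls and 4.43 and 4.40 after knockdown (-1.68 ± 0.29, adjusted p = 0.0242). It was the 1 of 23 cAMP and G protein signalling genes called. Dyrk2, a dual-specificity kinase, fell (-1.04 ± 0.20, adjusted p = 0.0386) and Pask, the PAS domain kinase, rose from 4.05 and 3.86 to 5.02 and 5.07 (1.09 ± 0.16, adjusted p = 0.0125), the 2 calls among 35 other kinases. fng, a glycosyltransferase that modifies Notch, rose from 2.98 and 3.10 to 4.15 and 3.84 (0.96 ± 0.14, adjusted p = 0.0125), 1 of 13 Notch pathway genes. ImpE3, an ecdysone-induced gene, rose from 3.96 and 3.78 to 5.30 and 5.46 (1.52 ± 0.15, adjusted p = 0.00154), 1 of 15 ecdysone response genes.

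Of 16 JNK pathway genes, 13 were tested and 0 were called by limma (3 at an unadjusted p under 0.05), but the values lay to one side. The change was below 0 in all 13, both knockdown arrays lay below both controls in 11 (84.6%, against 23.8% of all features), and the median was -0.332. The kinase slpr (4.50 and 5.12 to 3.86 and 4.05, -0.85 ± 0.19, adjusted p = 0.0676) and the phosphatase puc (6.86 and 7.36 to 6.43 and 6.47, -0.66 ± 0.24, adjusted p = 0.266) had the smallest p. Several of these genes read higher on the second control array than on the first, and the median was -0.54 with the first control array left out and -0.20 with the second left out. In total RNA the median was 0.17, and -0.18 without the first knockdown array. Cytoskeleton, adhesion and guidance genes (26 tested of 50) had 0 calls by limma (0 at an unadjusted p under 0.05), 15 with knockdown arrays below controls (57.7%, against 23.8% of all features), 2 with knockdown arrays above them and a median of -0.211, which was -0.08 without the second control array and -0.08 without the first knockdown array. Heat shock chaperones (11 tested of 22) had 0 calls by limma (4 at an unadjusted p under 0.05) and a median of -0.332. Of these 11, the arrays did not overlap for 6 that were lower (54.5%, against 23.8% of all features) and for 3 that were higher (27.3%, against 23.3%).

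**Figure D3:**
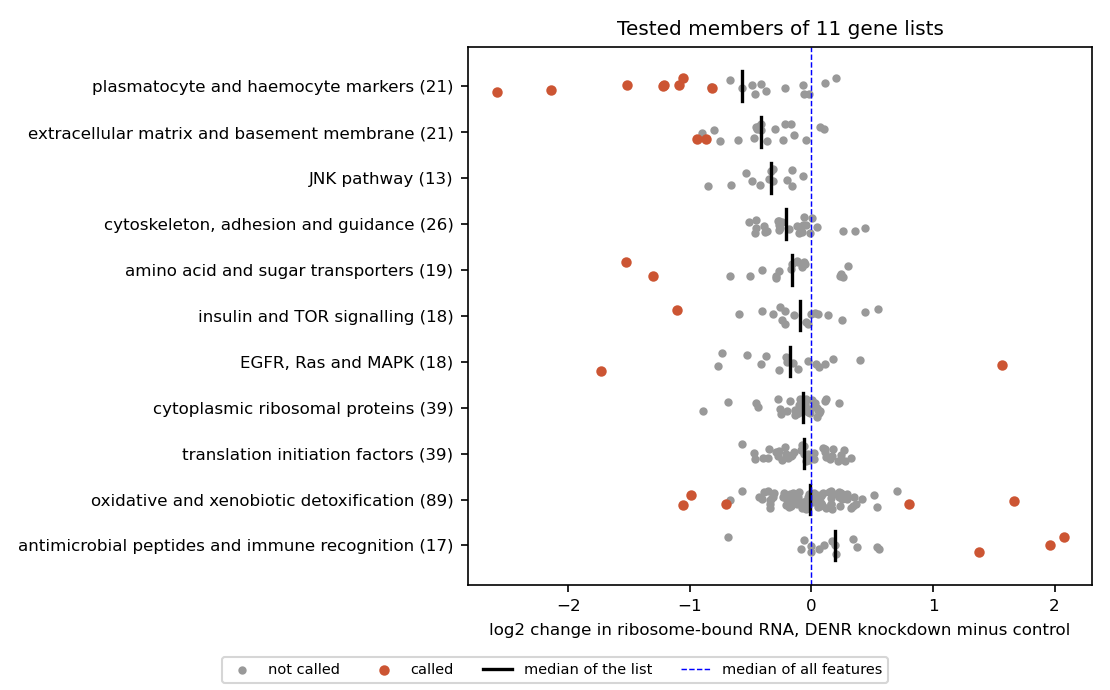
Each point is the log2 change in ribosome-bound RNA of 1 tested member of a gene list (number tested in parentheses; vertical scatter has no meaning), with called members in orange, the list median as a black bar and the median over all features as a dashed line. Haemocyte markers (median -0.574) and extracellular matrix genes (median -0.417) lie to the left, immune genes (median 0.196) to the right, and ribosomal proteins around 0.

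Transport and metabolism contributed further falls. path, an amino acid transporter of the SLC36 family, read 6.48 and 6.67 in controls and 4.96 and 5.14 after knockdown (-1.53 ± 0.25, adjusted p = 0.0194). CG7888 went from 5.01 and 5.09 to 3.65 and 3.85 (-1.30 ± 0.15, adjusted p = 0.00341). These were the 2 of 19 amino acid and sugar transporters that fell (31 listed, median -0.158), and 0 rose. LManI went from 6.16 and 6.30 to 4.82 and 4.92 (-1.36 ± 0.21, adjusted p = 0.0129). wun2, a lipid phosphate phosphatase, fell by 1.15 ± 0.13 (adjusted p = 0.00313), and with bgm made up the 2 calls among 29 lipid metabolism genes. Men, the malic enzyme, fell by 0.89 ± 0.16 (adjusted p = 0.0330), 1 of 28 carbohydrate and one-carbon genes. Called shares were 10.5% for the transporters, 6.9% for lipid metabolism and 3.57% for the carbohydrate list, against 1.34% of all features. Outside the lists, Gpdh1, the glycerol-3-phosphate dehydrogenase, fell by 1.03 ± 0.13 (adjusted p = 0.00441), and its 3 other probe sets also read lower (-0.86, -0.45 and -0.54). Apoltp, the precursor of a lipid transfer particle, fell by 0.97 ± 0.14 (adjusted p = 0.00929).

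A few nuclear and RNA-related genes fell. Hers, a repressor of histone genes, read 7.43 and 7.80 in controls and 6.02 and 6.19 after knockdown (-1.50 ± 0.28, adjusted p = 0.0332), the 1 call of 29 chromatin genes (3.45%, against 1.34% of all features). Sf3b3, a subunit of the SF3b splicing complex, read 8.75 and 8.82 in controls and 7.62 and 7.60 after knockdown (-1.18 ± 0.13, adjusted p = 0.00313). Its total RNA difference was -0.32. Polr3I, a subunit of RNA polymerase III, fell from 5.59 and 5.54 to 4.91 and 4.79 (-0.72 ± 0.14, adjusted p = 0.0364). The spans of DENR and Polr3I overlap on the X chromosome in the RefSeq table, which gives no strand, so that the value of Polr3I is uncertain. Polr3I lost its call with array medians centred, with the replicate block, with the intensity trend and robust prior, with a minimum fold of 1.5, and in 6 of the 8 fits that left out 1 array (either control total array or any ribosome-bound one).

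Other falls were of membrane, cytoskeletal and secretory genes. Ten-m, a teneurin, fell by 1.12 ± 0.17, tmod, the actin-capping tropomodulin, by 1.0 ± 0.18, and betaTub97EF, a beta tubulin, by 0.74 ± 0.13. tmod had another probe set, near background at a mean of 2.33, which read 0.14. The neprilysin-like genes Nepl4 (-1.06 ± 0.20) and Nepl9 (-0.66 ± 0.13) fell, as did the carbohydrate-binding glec (-0.92 ± 0.15) and EMC10 of the ER membrane complex (-0.90 ± 0.18). Tango5 (-0.89 ± 0.15), the nicotinamidase Naam (-0.83 ± 0.17) and BI-1, a Bax inhibitor (-0.77 ± 0.15), fell too. Nubpl, which acts in the assembly of respiratory complex I, fell by 0.70 ± 0.13, whereas its dimmer probe set read 0.53. firl (-1.46 ± 0.16), CG34331 (-1.40 ± 0.17), CG14273 (-1.32 ± 0.17), CG5973 (-1.27 ± 0.25) and Had2 (-1.20 ± 0.18) were further steep falls, of genes given here without a role. Of 14 other probe sets of called genes with more than 1, 11 shared the sign of the one used, and 7 had a mean signal under 3.

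Swim, which is secreted and carries Wingless through the extracellular space, had the largest rise. It read 4.77 and 4.69 in controls and 7.33 and 7.48 after knockdown, a 6.40-fold rise (2.68 ± 0.18, adjusted p = 0.000114). The other 8 Wingless pathway genes tested had no call, and that list's median was -0.076. In total RNA Swim read higher by 2.41.

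Immune genes came next. Nazo, an antiviral effector, read 3.15 and 3.18 in controls and 5.37 and 5.10 after knockdown (4.21-fold, 2.07 ± 0.16, adjusted p = 0.000229). GNBP3, a secreted sensor of fungal glucans, read 2.17 and 2.18 in controls and 4.18 and 4.09 after knockdown (1.96 ± 0.13, adjusted p = 0.000114). AttD, an attacin, read 2.51 and 2.62 in controls and 3.96 and 3.92 after knockdown (1.38 ± 0.17, adjusted p = 0.00494). The control signals of GNBP3 and AttD lay about the array medians, near the bottom of the measured range. Of 38 antimicrobial and recognition genes, 17 were tested: 3 rose, none fell and 14 had no call, against 0.653% of all features rising. For 8 of the 17 both knockdown arrays lay above both controls, against 23.3% of all features, and the median was 0.196. That median was 0.07 without the first knockdown ribosome array and 0.12 without the second control ribosome array. CecB, a cecropin (0.55 ± 0.13, adjusted p = 0.0700), PGRP-LF, a recognition receptor (0.54 ± 0.15, adjusted p = 0.128), and Sting (0.37 ± 0.20, adjusted p = 0.474) had positive values without a call. The antifungal peptide Drs (0.00 ± 0.14) read 4.10 and 4.12 in controls and 4.06 and 4.16 after knockdown, and vir-1, a virus-induced gene, read lower (-0.69 ± 0.15, adjusted p = 0.0640). The values of the list thus lay on both sides of 0. The count of 3 was 2 without each of the 4 ribosome-bound arrays, and 0 among features with a mean log2 signal of at least 5, a filter that leaves out the dim genes GNBP3, AttD and Nazo.

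**Figure D4:**
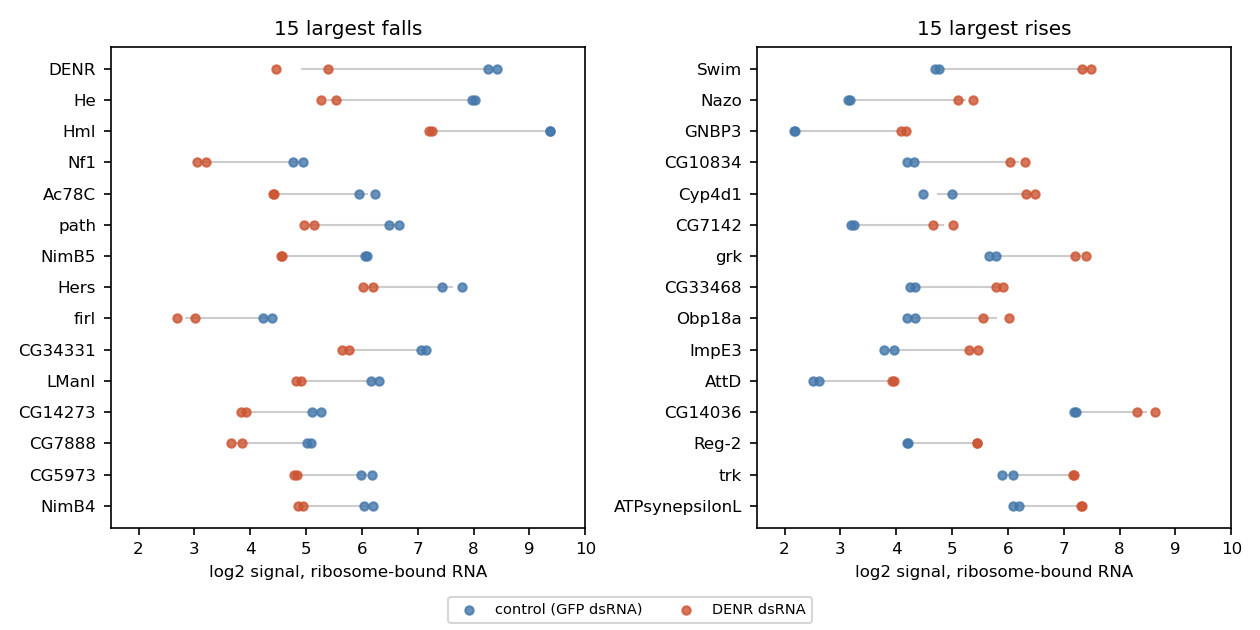
Log2 signal on each ribosome-bound array of the 15 named genes that fell most (left) and the 15 that rose most (right), with control arrays in blue, DENR knockdown arrays in orange and a grey line joining the group means. At every gene shown the 2 knockdown points lie on one side of the 2 control points, with the widest gap between arrays of a group at DENR (5.40 and 4.46).

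Other genes that rose belong to none of the lists. trk (Trunk), the ligand of the Torso receptor, rose from 5.90 and 6.09 to 7.19 and 7.17 (1.18 ± 0.14, adjusted p = 0.00322). Gbp1, a growth-blocking peptide, rose from 7.65 and 7.80 to 9.03 and 8.74 (1.16 ± 0.15, adjusted p = 0.00601). Obp18a, of the odorant-binding protein family, rose from 4.34 and 4.19 to 6.01 and 5.54 (1.52 ± 0.19, adjusted p = 0.00461). Acer, a peptidase related to angiotensin-converting enzyme, rose by 1.05 ± 0.16, and the serpin Spn28Dc by 0.69 ± 0.13.

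Detoxification genes moved both ways. Of 128 genes, 89 were tested: 2 rose, 3 fell and 84 had no call, with a median of -0.015. The called share was 5.62%, against 1.34% of all features. Cyp4d1, a cytochrome P450, rose from 4.49 and 5.0 to 6.49 and 6.33 (3.17-fold, 1.67 ± 0.18, adjusted p = 0.00274), and the glutathione transferase GstT3 rose by 0.80 ± 0.13 (adjusted p = 0.0167). GstD7 fell from 8.63 and 8.18 to 7.32 and 7.37 (-1.06 ± 0.16, adjusted p = 0.0138), Cyp12a5 by 0.99 ± 0.19 (adjusted p = 0.0344) and Cyp9h1 by 0.71 ± 0.14 (adjusted p = 0.0451). Members of both enzyme families were thus found on both sides.

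Mitochondrial and other rises were scattered. ATPsynepsilonL, a paralogue of an ATP synthase subunit, rose from 6.20 and 6.10 to 7.30 and 7.33 (1.17 ± 0.13, adjusted p = 0.00298), the 1 call among 64 oxidative phosphorylation genes, whose median was 0.005. That share of 1.56% was near the 1.34% of all features. HtrA2, a mitochondrial protease, rose by 0.85 ± 0.15. glob1, a haemoglobin, rose from 7.39 and 7.46 to 8.49 and 8.43 (1.04 ± 0.13, adjusted p = 0.00461). Dbp80, an RNA helicase (0.89 ± 0.18), Golgin104 (0.87 ± 0.14), the acyl-CoA-binding protein Acbp2 (0.79 ± 0.16), kune, a claudin of septate junctions (0.74 ± 0.13), and IFT20, of intraflagellar transport (0.71 ± 0.13), also rose. Arc1, whose protein forms capsids that carry RNA, rose at a high signal, from 10.56 and 10.68 to 11.37 and 11.45 (0.79 ± 0.14, adjusted p = 0.0311), and its other probe set read 0.58. The 3 called genes whose symbols mark them as noncoding, hpRNA:CR32207 (1.06 ± 0.19), CR44101 (0.96 ± 0.14) and lncRNA:CR32368 (0.83 ± 0.14), all rose. How many such genes were tested was not counted. Their share can therefore not be set beside the 0.653% of all features that rose. Among the 15 largest rises, CG10834 (1.92 ± 0.15), CG7142 (1.62 ± 0.21), CG33468 (1.55 ± 0.19), CG14036 (1.27 ± 0.19) and Reg-2 (1.25 ± 0.14) complete the list.

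The translation machinery itself had no call. Of 39 cytoplasmic ribosomal protein genes tested, 0 were called by limma (4 at an unadjusted p under 0.05), and their median was -0.067, which turned to 0.027 after quantile normalization inside each fraction and to 0.024 after cyclic loess. Both knockdown arrays lay below both controls for 17 of the 39 (43.6%, against 23.8% of all features). They lay above both controls for 4 (10.3%, against 23.3%). RpS7 (11.88 and 11.88 to 11.36 and 11.04, -0.69 ± 0.14, adjusted p = 0.0509) and RpS18 (11.43 and 11.45 to 10.86 and 10.24, -0.89 ± 0.19, adjusted p = 0.0566) lay just outside the threshold and apart from the other members. Initiation factors (39 tested, 0 called, 5 at an unadjusted p under 0.05) had a median of -0.064 and a lowest value of -0.567. Among them were eIF3d1 (-0.47 ± 0.12, limma adjusted p = 0.121) and eIF3h (-0.46 ± 0.13, adjusted p = 0.147). Elongation and termination factors (11 tested of 16, 0 called, 1 at an unadjusted p under 0.05) had a median of -0.193, with eEF5 at -0.40 ± 0.14 and eRF3 at -0.54 ± 0.27. Their knockdown arrays lay below both controls for 7 of the 11 (63.6%) and above them for 1. For initiation factors these counts were 15 (38.5%) and 10 (25.6%). Aminoacyl-tRNA synthetases (32 tested, 10 at an unadjusted p under 0.05, AlaRS at -0.42 ± 0.13), mitochondrial ribosomal proteins (71 tested, 7 at that level, mRpS17 at -0.50 ± 0.14) and the proteasome (31 tested of 40, 5 at that level, Prosbeta4 at -0.43 ± 0.13) had 0 calls by limma. Proteasome genes had both knockdown arrays below both controls in 16 of 31 (51.6%) and above them in 3 (9.68%). Synthetases had 12 lower (37.5%) and 10 higher (31.2%), against 23.8% and 23.3% of all features. Mitochondrial ribosomal proteins had 16 each way (22.5%), near the shares of all features. Genes of the ATF4 and integrated stress response (14 tested of 20) had 0 calls by limma and 1 member at an unadjusted p under 0.05, Nmdmc, a folate enzyme (-0.59 ± 0.15, adjusted p = 0.107). The unfolded protein response (16 tested of 21) likewise had 0 and 1, the 1 being the chaperone Gp93 (-0.39 ± 0.14). In all, 24 of 45 lists had no called member.

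The changes on ribosomes were set beside those in total RNA from the same treatments. All 67 features that rose on ribosomes had a positive difference in total RNA, and for 63 of them both knockdown total arrays lay above both controls, against 24.5% of all features. Of the 71 that fell, 66 had a negative difference in total RNA, 57 with arrays that did not overlap, against 21.5% of all features. For 0 features did the total RNA arrays separate in the opposite direction. The median total RNA difference was 0.70 for the rises, whose median on ribosomes was 0.89, and -0.64 for the falls, whose median on ribosomes was -1.03. The change was larger on ribosomes for 53 of the rises and 51 of the falls. These counts describe features chosen by their ribosome-bound change, so a larger value there is partly set by the choice.

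The test of the difference itself, an interaction term in the same limma fit, called 0 of 10262 features (0%), with 1022 at an unadjusted p under 0.05 and a smallest adjusted p of 0.0653. Among called genes, the values furthest below total RNA were those of DENR (-2.66 ± 0.35, adjusted p = 0.101), chico (-1.36 ± 0.32), Cyp12a5 (-1.05 ± 0.26), Tmem214 (-1.04 ± 0.27) and CG5973 (-1.02 ± 0.35). Cyp12a5 and Tmem214 differed in total RNA by 0.05 and 0.09. The values furthest above were those of NimB3 (1.04 ± 0.18, adjusted p = 0.277), hpRNA:CR32207 (0.85 ± 0.27), CG31313 (0.82 ± 0.23), CG17721 (0.76 ± 0.21) and CG14036 (0.72 ± 0.27). NimB3 stands there because it read still lower in total RNA (-1.86) than on ribosomes. The adjusted p of all but DENR and NimB3 among these 10 was 0.480.

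**Figure D5:**
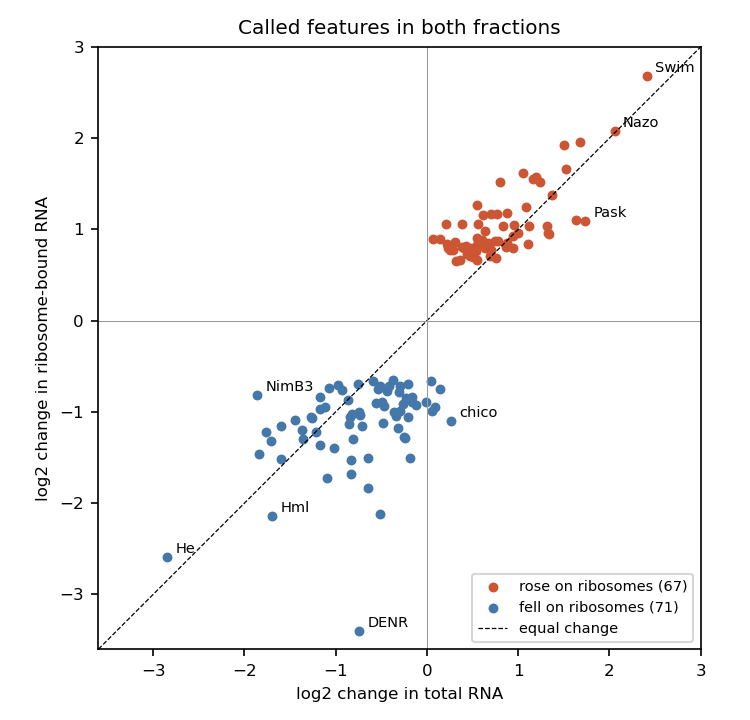
Log2 change in total RNA (x axis) and in ribosome-bound RNA (y axis) of the 138 features called in ribosome-bound RNA, with the dashed line marking equal change. All 67 rises lie to the right of 0 in total RNA, 66 of 71 falls lie to the left of it, and DENR lies furthest below the line.

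The calls rested on few arrays. Of the 120 called genes with a symbol, 16 were called in each of the 8 fits that left out 1 array. The 7 of these that fell were DENR, He, Hml, Nf1, NimB5, firl and Sf3b3, and the 9 that rose were Swim, GNBP3, Nazo, CG10834, Cyp4d1, grk, ImpE3, Reg-2 and ATPsynepsilonL. For Nf1 this holds for the probe set used, whose fall was larger than the differences of its other probe sets. Leaving out the first or second control ribosome-bound array ended 91 or 97 of the 120 calls, and leaving out the first or second knockdown ribosome-bound array ended 102 or 92. Leaving out the one or the other control total array ended 19 calls, and leaving out the one or the other knockdown total array ended 0, the one that stood apart included. The values moved by at most 1.44 times in these fits, and the adjusted p of a lost call ran from 0.0512 to 0.406. With array medians centred 50 of the 120 calls were lost, among them Ac78C, path, Hers, chico, Sr-CI, Dyrk2, cher, wb, Cyp12a5, Men and tmod.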

How the data were processed

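The deposited table holds 1 log2 signal per probe set and array. Per the submitters' processing notes it was made with RMA, of unstated version; that the scale is log2 was read from the range of the values. RMA brings arrays to a common distribution, so a shift of most transcripts in 1 direction is not seen. Without 183 controls, 18769 of 18952 probe sets remained, 13647 with a single gene symbol, 402 with several and 4720 with none; those without a single symbol were tested and not named. For each symbol the probe set with the highest mean over 8 arrays was kept (17104 features, 11982 of them genes), then the brightest 60% (mean of at least 2.12). A RefSeq gene table (Release 6) matched 13544 probe sets and gave gene order; the sources used here name no build for the array, so no coordinates or sequences are printed.

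Group means were fitted to all 8 arrays with limma 3.58.1 (R 4.3.3) and empirical Bayes moderation; tests were two-sided with Benjamini-Hochberg adjustment, and errors are moderated standard errors. The series' design text speaks of 2 biological replicates; precision is limited by the number of arrays. Replicate numbers were not taken to pair samples: the deviations of arrays with the same number correlated at 0.38 between the total RNA groups and 0.27 between the ribosome-bound groups, but at -0.38 to -0.20 between fractions.

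Members, gene lists and tests were chosen with earlier results of these data known. Named were DENR, MCTS1, eIF2D, InR and EcR, the 15 largest rises and falls among called genes with non-overlapping arrays, every called list member, up to 2 members of smallest p where a list had no call, other called genes by role, and the 5 largest differences to total RNA in each direction; further list members are given as values and were chosen after their values were seen. List patterns also took a few genes of other function (Cyp1 and Cyp40 in detoxification). Alternatives were other filters and normalizations, all probe sets, a trend with robust prior, a minimum fold of 1.5, only the 4 ribosome-bound arrays, each array left out, a fixed replicate block and a random block for the culture. Scripts were tested on simulated data. Figures were drawn with matplotlib 3.10.9.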

Additional observations from a re-analysis of the deposited data

How the results depend on the processing

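The count of 138 called features in ribosome-bound RNA was 395 with only the 4 ribosome-bound arrays, 224 with an intensity trend and robust prior, 90 with a mean log2 signal of at least 5, 80 with array medians centred and 11 with a minimum of 1.5-fold. It ran from 23 to 212 over the 8 fits that each left out 1 array: 36, 28, 23 and 30 without a ribosome-bound array (control 1, control 2, knockdown 1, knockdown 2), and 212 without the one or the other knockdown total array. With the replicate block it was 95, and with the block numbers crossed between fractions, an alternative chosen after seeing the data, 413. The split of higher and lower calls, 67 and 71, was 98 and 86 after quantile normalization inside each fraction, 77 and 94 after cyclic loess and 43 and 37 with array medians centred. For the difference between fractions, the count of 0 was 1 with the replicate block, 6 with the crossed block, 1 with no filter, 3 with the trend and robust prior, and 0 to 1 with single arrays left out. No called gene changed direction in any alternative. Of the values of single genes over all alternatives, 1896 kept their side of the threshold and 643 lost the call. The replicate block ended 38 of the 120 named calls. Array signal over background limits genes with signals near the array medians.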

Other observations

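Besides the named genes, 18 called features had no single gene symbol, 14 of which fell and 4 rose. Of the 10262 features tested, all but the 8164 named genes were of this kind. Over all features 0.692% fell and 0.653% rose. Shares within this kind were not computed, so the split is not read as an excess of falls. The steepest of them read 4.38 and 3.94 on the control ribosome-bound arrays and 1.96 and 2.12 on the knockdown arrays (-2.12 ± 0.16, limma, adjusted p = 0.000213), with a total RNA difference of -0.51. At high signal, another went from 11.13 and 10.41 to 9.29 and 8.58 (-1.83 ± 0.27, adjusted p = 0.0121) and the last from 11.04 and 10.62 to 9.61 and 9.04 (-1.51 ± 0.20, adjusted p = 0.00654), with a total RNA difference of -0.19. These 3 probe sets were chosen after their values were seen.

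Some called genes lie close together outside the Nimrod group. In the RefSeq order of protein-coding genes, Dyrk2 and wb, both of which fell, are direct neighbours on 2L. CG8613 (0.77) and Arc1 (0.79), CG12868 (0.98) and CG33468 (1.55), and Gbp1 (1.16) and CG43103 (1.06), all of which rose, stand 2 places apart on 2R, and CG14341 (0.76) and Charon (0.80) stand 3 places apart on 2L. CG10337 (0.79) and CG13077 (-0.70), 3 places apart on 2L, moved in opposite directions. No test of clustering was run.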
